A study of Mus musculus with 12 samples.

Results

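The genes of the cytosolic translation initiation, elongation and termination factors were examined in B16F10 cells, a mouse melanoma line, by ribosome profiling and total RNA sequencing. They were chosen by name, as the protein-coding genes in both count tables whose symbol starts with Eif1, Eif3, Eif4, Eif5, Eif6, Eef1, Eef2, Etf1 or Gspt. Eif2 genes, the Eef1akmt, Eef2k and Eef2kmt enzymes, pseudogenes and Y-linked genes were left out. This gave 50 of the 55487 genes in the tables, 21974 of which are protein-coding. By name, 7 were grouped under scanning and subunit joining, 14 under eIF3, 13 under cap binding and helicase and 3 under inhibitors that bind eIF4E. Another 1 (Eif6), which keeps ribosomal subunits apart, stood alone, 9 were grouped under elongation and 3 under termination. These role groups follow gene names, and not every gene in them is known to act in the role named.

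The study knocked down Osgep, whose product is the active enzyme within KEOPS, an assembly that adds N6-threonylcarbamoyladenosine (t6A) to tRNAs reading codons that start with A. Control cells (shCtr, genotype WT in the labels) expressed a control short hairpin RNA and knockdown cells (shOSGEP, genotype KD OSGEP) expressed hairpin number 2 against Osgep, each brought in by lentivirus. Each genotype gave 3 libraries of ribosome-protected fragments (RPF, or footprints) and 3 of total RNA, 12 in all. Cells of every group were treated with cycloheximide before lysis, and footprints were taken from ribosomes caught by a puromycin analogue on beads. Only a single hairpin was used, so effects of its sequence and of Osgep loss cannot be told apart. The labels do not say whether replicates were separate cultures, while the study's methods describe independent transductions for its experiments.

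Initiation starts when eIF4F, built of the cap-binding protein eIF4E, the scaffold eIF4G and the helicase eIF4A, brings the small ribosomal subunit with eIF3, eIF1, eIF1A and eIF5 to the mRNA. After scanning to a start codon, eIF5B joins the large subunit, eEF1A delivers aminoacyl-tRNA, eEF2 moves the ribosome and eRF1 (Etf1) with eRF3 (Gspt1, Gspt2) ends synthesis. Many of these transcripts are themselves controlled at translation, through a pyrimidine tract at the cap that mTOR signalling acts on, or through the surroundings of their own start codon.

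Osgep itself measured 13.9, 15.7 and 15.3 CPM (counts scaled to the TMM-adjusted library size) in shCtr total RNA of replicates 1 to 3 and 0.589, 6.92 and 6.77 CPM in shOSGEP total RNA, so the groups did not overlap. Its RPF values of 7.72, 7.27 and 4.71 CPM in shCtr and 4.87, 3.81 and 2.36 CPM in shOSGEP did overlap. Total RNA libraries held 46717840 to 81073416 counts, and protein-coding genes took 88.8% to 93.5% of them. Footprint libraries had 12850642 to 40343700 counts, 4417284 to 17017589 of them from protein-coding genes, fewest in shOSGEP replicate 1, where ribosomal RNA took 67.7%. Of 7 melanocyte markers, 6 were above 10 CPM in every library of each assay. The summed level of the 7 ranged from 9665 to 16836 CPM in shCtr total RNA and from 2655 to 12789 CPM in shOSGEP total RNA. The lowest value was that of shOSGEP replicate 1, which stood apart from the other shOSGEP libraries at 12789 and 11390.0 CPM, and its RPF sum of 1289 CPM was also the lowest of 6, the others lying between 2397 and 5640 CPM. Differences of pair 1 below include this replicate. It also had the lowest Osgep RNA (0.589 CPM), though its Osgep footprints (4.87 CPM) were the highest in shOSGEP cells. Results without shOSGEP replicate 1 therefore also lack the sample with the least Osgep RNA. A set of 10 markers of immune, endothelial, keratinocyte and fibroblast cells summed to at most 25.04 CPM in any library. That sum was of shOSGEP replicate 1 in RNA, where Col1a1 reached 15.3 CPM. Pdgfra lay at 2.00 to 10.5 CPM across the libraries, and Cd68 reached 4.87 CPM in RNA. Ptprc, Cd3e, Pecam1, Cdh5, Krt5, Krt14 and Col3a1 stayed under 1 CPM throughout. The part of these levels in the results below was not tested.

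Start sites are shown for Eif1 and Eif5, for the context of the start codon, and for Eif4g2, whose first codon is not ATG. The mRNA windows run from 9 bases before the start of the annotated coding sequence to 15 bases into it, 5′ to 3′ (GENCODE M21 transcripts, GRCm38), with the initiating codon in capitals. Eif1 (chromosome 11, 100319885 to 100322096, plus strand) encodes the factor that guards start codon choice and is known to sense a weak context at its own start. Eif5 (chromosome 12, 111538016 to 111546752, plus strand) encodes its counterpart, which triggers GTP hydrolysis once the start codon is met. Eif4g2 (chromosome 7, 111067750 to 111083030, minus strand) encodes an eIF4G relative without the eIF4E-binding part and is known to start at GTG.
Eif1: tcgtatcgtATGtccgctatccag
Eif5: taagccaaaATGtctgtcaacgtc
Eif4g2: gccgccaaaGTGgagagtgcgatt

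A further group of 9 genes was listed from textbook knowledge as carrying a terminal oligopyrimidine (TOP) tract at the cap, namely Eef1a1, Eef1b2, Eef1d, Eef1g, Eef2, Eif3e, Eif3f, Eif3h and Eif4b. RefSeq promoter entries (GRCm38.p6), read on the gene's strand, were found for 5 of them. A tract, searched as a C followed by at least 4 bases that are each C or T and beginning within 5 bases of the annotated start, was present in 2 of the 5. The windows below show both, with the tract in capitals.
Eef1a1 (chr9:78481705-78481730, minus strand): gccctCTTCCCgagggtgggggagaa
Eif3f (chr7:108934409-108934434, plus strand): ggctctCTCTCTTTCTCggcaagatg

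The same search found a tract in 21.2% of the 27025 genes with a promoter entry, in 7 of the 35 translation factor genes with one (20%) and in 27 of 55 ribosomal protein genes (49.1%). Annotated starts can be off, so the matches at Eef1a1 and Eif3f and the absent matches at Eef1b2, Eef2 and Eif4b describe these windows only. Whether a marked tract lies at the cap of the transcript was not tested.

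Because many translation factor genes have processed pseudogenes, the coding sequence of each was cut into windows of 30 bases, about the length of a footprint, and each window was looked up in the transcripts of all other annotated genes. Sharing ran from 0% for Eif3a, Eif3g, Eif3l, Eif4ebp2, Eif4enif1, Eif4g3, Eif5a2, Eif1ad, Eef1e1 and Etf1 to 100% for Eif3j1 and Eif3j2. The coding sequences of Eif3j1 and Eif3j2, both encoding the loosely bound eIF3j subunit, were identical over 786 aligned bases. Sharing was also high for Eif4a1 (99.0%, mostly with the pseudogene Eif4a-ps4, which held 97.2% of its windows), Eif1 (98.1%), Eef1g (95.3%), Eef1a1 (88.5%, with 23 pseudogenes) and Eif4e (78.9%). How the authors assigned reads with several matches is not given in the sources used here, so footprint counts of these genes are uncertain.

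**Figure D1:**
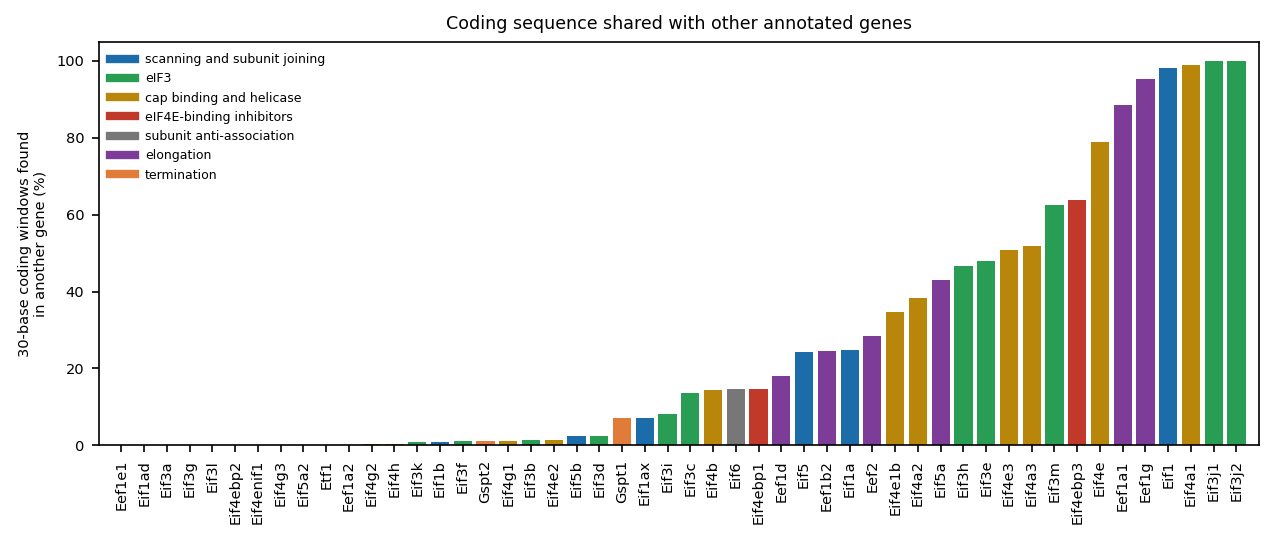
Percent of the 30-base coding windows of each of the 50 genes that also occur in the transcripts of another annotated gene, coloured by role. Bars reach 98.1% or more for Eif1, Eif4a1, Eif3j1 and Eif3j2 and lie at 0% for 10 genes.

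The members were next compared by level. Footprint counts were divided by coding length and total RNA counts by exon length, and both were scaled as in TPM, so that all protein-coding genes of a library sum to the same total. Translation factor genes together took 1.97% to 2.79% of protein-coding footprint counts and 2.40% to 2.60% of protein-coding RNA counts across the libraries. These levels are given without a test.

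Among elongation factors, Eef1a1 was the most abundant of all members on both scales. Its footprint level per coding length was 5752 ± 1952 in shCtr and 4497 ± 2138 in shOSGEP cells (SD, n = 3 each), and its RNA level per exon length was 10757 ± 1409 and 10176 ± 785. Eif5a, which helps ribosomes through difficult peptide bonds, followed in shCtr footprints with 1970 ± 306, and Eef2, the translocase, with 1869 ± 497 (SD, n = 3 each), values that did not differ beyond their spread. Eef1b2 (1127 ± 71.0) and Eef1g (689 ± 65.0), subunits of the exchange factor that reloads eEF1A with GTP, came next in shCtr footprints.

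The paralogues were far lower. Eef1a2, the eEF1A form of muscle and neurons, rested on 1 to 16 footprint reads per library and measured 0.990 ± 0.982 per coding length in shCtr footprints. Eif5a2 measured 38.8 ± 1.32 in shCtr footprints, far under Eif5a. In termination, Gspt2 measured 6.08 ± 1.63 in shCtr footprints against 134 ± 33.7 for its paralogue Gspt1, and Etf1, the factor that reads stop codons, measured 265 ± 34.0.

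Of the scanning factors, Eif1 was the highest with 895 ± 202 in shCtr footprints per coding length, ahead of Eif5 with 459 ± 72.8 (SD, n = 3 each). Eif5b was the lowest of this group in shCtr footprints (96.3 ± 28.0), close to Eif1b (98.5 ± 7.76). Eif6 measured 172 ± 39.3.

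Among cap-binding and helicase factors, Eif4h, a helper of eIF4A, was highest in shCtr footprints (764 ± 81.7), followed by Eif4g2 (660 ± 146), Eif4a1 (566 ± 50.8), Eif4b (460.3 ± 86.0) and Eif4a2 (437 ± 224). Eif4g1, the main scaffold, reached 346 ± 64.3 and Eif4e, the cap-binding protein, 219.5 ± 13.8. Neighbours in this order lay within 1 SD of each other's ranges, except that Eif4e lay below Eif4g1 by more than their SDs. Eif4e1b, known from oocytes, had at most 3 reads in any library.

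The inhibitors of eIF4E differed from each other in level. Eif4ebp2 reached 2604 ± 580 in shCtr footprints per coding length, below Eef1a1 alone among the members, while its RNA per exon length was 277 ± 8.08 (SD, n = 3 each). Eif4ebp1 measured 262 ± 84.9 in footprints and 213 ± 46.3 in RNA. Eif4ebp3 had no RNA read in shCtr cells and 0 to 46 footprint reads per library, and 63.9% of its coding windows also belong to AC115631.1. A footprint count here is per gene and may include reads outside the coding sequence, which raises a level per coding length.

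The 12 core subunits of eIF3, which are present in equal number in the complex, were compared with each other by footprint level. In shCtr cells they ran from 113 for Eif3m to 344 for Eif3a, a ratio of 3.03, with a median of 189. In shOSGEP cells the range was 107 for Eif3m to 381 for Eif3a, a ratio of 3.55. The spread of RNA levels per exon length was 103 to 549 in shCtr cells, a ratio of 5.32. That ratio fell to 2.26 when the length of the longest coding transcript replaced that of all exons, while the footprint ratio stayed at 3.03. For Eif3m, the lowest in footprints, 62.6% of coding windows are shared with other genes, so its level is uncertain.

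**Figure D2:**
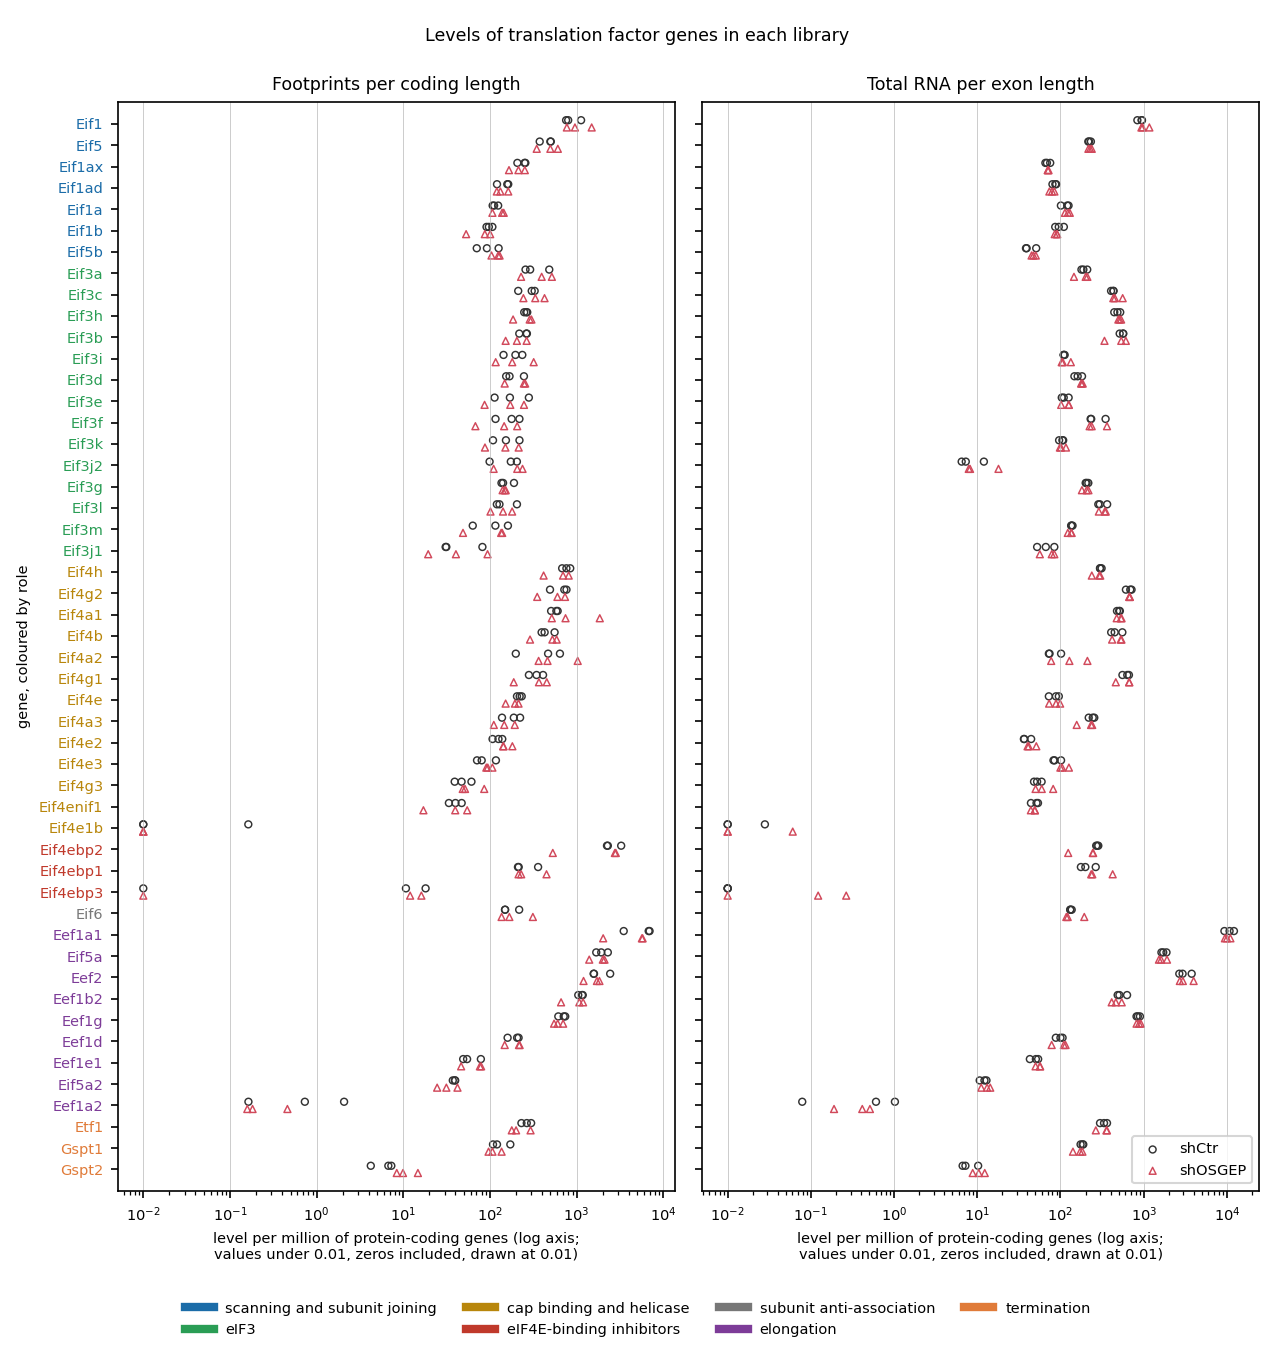
Footprint level per coding length (left) and RNA level per exon length (right) of the 50 genes on log axes, scaled as in TPM over protein-coding genes, with 1 point per library, circles for shCtr and triangles for shOSGEP. Eef1a1 has the highest mean of both panels, and Eif4ebp2 stands second in the mean of shCtr footprints.

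Whether these transcripts carry more or fewer footprints than their RNA share was tested within each genotype. The 3 RPF and 3 total RNA libraries were compared over protein-coding genes, with positive log2 values where the share of footprints exceeds the share of RNA. In shCtr cells 8 of 48 members passed an adjusted p of 0.05, 7 of them with more footprints and 1 with fewer, while 10.4% of the 12022 genes tested passed in either direction (5.7% higher, 4.75% lower). In shOSGEP cells 2 of 47 passed, both with more footprints, while 1.68% of 12350 genes did in either direction (1.29% higher). The shares of members called were 16.7% and 4.26%. With the replicate number as a block 16 and 6 members passed, 33.3% and 12.8%, while 26.3% and 12.7% of all genes did. With an offset for length 39.6% of members and 42.8% of all genes passed in shCtr cells. Members thus showed no excess over all genes that held across these fits. Each shCtr call other than that of Eif3j2 was lost when at least 1 of the 3 replicates was left out, which brought the count to 1 to 3, and both shOSGEP calls were lost without replicate 2 or without replicate 3. The median member lay at 0.06 in shCtr and at −0.01 in shOSGEP cells, and the median gene at 0.03 and 0.01.

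Eif5b passed in both genotypes. It measured 80.4, 137 and 89.2 CPM in shCtr footprints and 98.8, 109 and 125 CPM in shCtr RNA of replicates 1 to 3. Its log2 ratio of footprints to RNA, relative to the median protein-coding gene of the same cell sample, was 1.07, 1.72 and 0.88 in shCtr cells and 1.68, 1.35 and 1.28 in shOSGEP cells. It was thus above the typical gene in 6 of 6 cell samples. Members that were not called, Eif3c and Eif4g3 among them, were so as well, and the share of all genes was not computed. The fitted log2 value was 1.27 (SE 0.24, edgeR adjusted p 0.0130) in shCtr and 1.39 (SE 0.24, edgeR adjusted p 0.0465) in shOSGEP cells. Only 2.40% of its coding windows occur in another gene.

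Eif3a (chromosome 19, 60761117 to 60790658, minus strand, GRCm38), the largest subunit and scaffold of eIF3, had no shared window. Its ratio was 1.03, 1.70 and 0.80 in shCtr cells and 1.43, 1.63 and 1.14 in shOSGEP cells, again above 0 in each. The fitted value was 1.25 in shCtr cells (SE 0.28, edgeR adjusted p 0.0243) and 1.38 in shOSGEP cells (SE 0.39, edgeR adjusted p 0.159). The shOSGEP value missed the threshold, but it passed with the replicate block (1.35) and with DESeq2 (1.41).

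Eef1b2 and Eef1d, which encode the nucleotide exchange subunits of eEF1B, passed in shCtr cells. Eef1b2 was the steadiest of the 8, with ratios of 0.85, 0.82 and 1.02 in shCtr cells and 0.90, 0.83 and 0.89 in shOSGEP cells. Its fitted value in shCtr cells was 0.90 (SE 0.20, edgeR adjusted p 0.0236). Eef1d ranged from 0.37 to 1.23 in shCtr and from 0.11 to 1.68 in shOSGEP cells, with a fitted value of 0.84 in shCtr cells (SE 0.21, edgeR adjusted p 0.0411). The third subunit, Eef1g, stayed near the typical gene with ratios of 0.35, 0.05 and 0.20 in shCtr cells, but 95.3% of its windows are shared.

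The eIF4E-binding inhibitors lay on opposite sides in these shares of counts, which make no allowance for length. Eif4ebp2 had ratios of 0.62, 0.51 and 1.00 in shCtr cells and passed (fitted 0.73, SE 0.19, edgeR adjusted p 0.0420). In shOSGEP cells its ratios were −0.01, 0.90 and 0.82, so that replicate 1 lay at the typical gene, and it was not called. Eif4ebp1 had ratios of −0.58, −1.10 and −0.91 in shCtr cells and −0.67, −1.40 and −1.37 in shOSGEP cells. It was thus below the typical gene in 6 of 6 cell samples, as were other members, Etf1 and Eif4g2 among them. Its fitted values of −0.82 and −1.09 missed the threshold, which they passed with the replicate block (−0.86 and −1.19). With the length offset Eif4ebp1 was not called. Its footprint level per coding length was 1.23 times its RNA level per exon length in shCtr and 0.99 times in shOSGEP cells. The low ratio of Eif4ebp1 therefore depended on how length was handled, while Eif4ebp2 rose to 3.23 with the offset in shCtr cells.

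Eif4a2 (chromosome 16, 23107444 to 23114136, plus strand, GRCm38), the eIF4A paralogue, had ratios of 0.93, 2.49 and 1.53 in shCtr cells, with a fitted value of 1.80 (SE 0.37, edgeR adjusted p 0.0195). Small RNA genes lie inside it, and Gm24616, a snoRNA of 139 bases at 23111617 to 23111755 on the same strand, took 5340, 3202 and 14331 footprint reads in shCtr replicates 1 to 3 against 30, 36 and 24 RNA reads. In shOSGEP cells it took 1520, 9030 and 38740 footprint reads, while Eif4a2 itself took 1359, 3893 and 7636 in shCtr and 1774, 5161 and 11904 in shOSGEP cells. Small RNA reads at this locus were therefore of the same order as those of the host gene in the RPF libraries, and their part in the Eif4a2 value was not tested. Of the coding windows of Eif4a2, 38.4% occur in another gene.

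**Figure D3:**
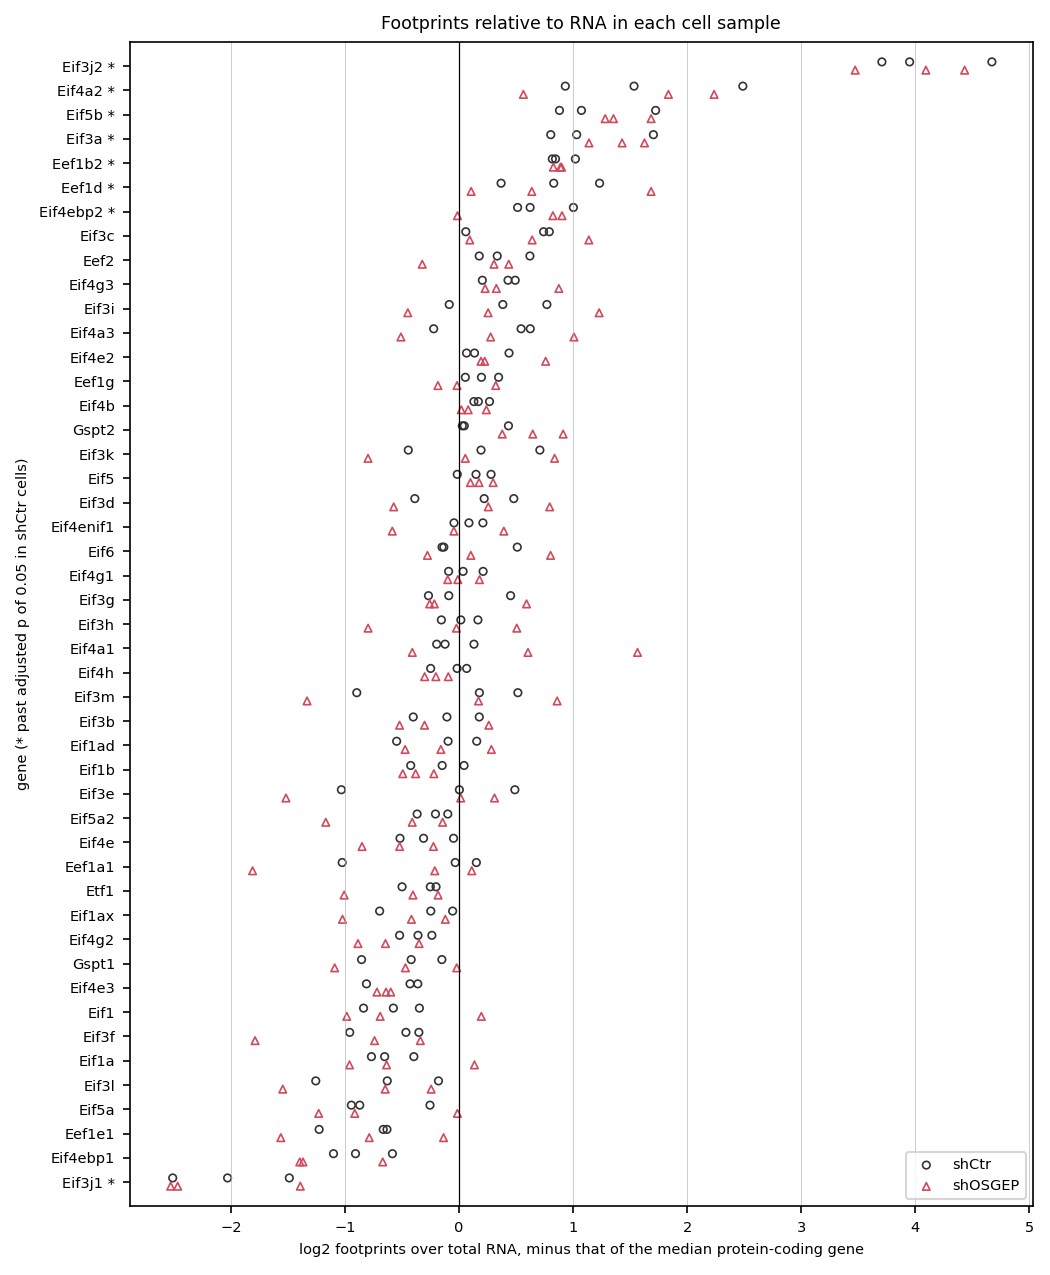
Log2 ratio of footprints to total RNA for 47 genes in each of 6 cell samples, relative to the median protein-coding gene, with circles for shCtr, triangles for shOSGEP and an asterisk for genes past an adjusted p of 0.05 in shCtr cells. Eif5b, Eif3a and Eef1b2 are among the genes above 0 in every cell sample, and Eif3j1 and Eif3j2 mark the ends of the scale.

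Eif3j1 and Eif3j2 gave the most extreme values in opposite directions. Eif3j2 measured 24.5, 48.2 and 36.4 CPM in shCtr footprints but 4.07, 4.94 and 7.19 CPM in RNA, and Eif3j1 measured 7.55, 7.34 and 16.99 CPM in footprints but 80.4, 111 and 124 CPM in RNA. The fitted values in shCtr cells were 4.14 for Eif3j2 (SE 0.33, edgeR adjusted p 0.000315) and −1.90 for Eif3j1 (SE 0.35, edgeR adjusted p 0.0115). In shOSGEP cells they were 3.89 (SE 0.45, edgeR adjusted p 0.0152) and −2.01 (SE 0.50, edgeR adjusted p 0.113). Their coding sequences cannot be told apart by a footprint, and when the counts of the pair were summed the fitted value was 0.16 in shCtr and 0.15 in shOSGEP cells, neither past the threshold. With the pair counted as 1 gene, 6 members passed in shCtr cells and 1, Eif5b, in shOSGEP cells.

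A related pattern was seen for Eif4a1, the most abundant eIF4A. The processed pseudogene Eif4a-ps4 took 155, 113 and 34.6 CPM of footprints in shCtr and 167, 102 and 11.8 CPM in shOSGEP cells, but at most 5.89 CPM of RNA in any library. The ratio for Eif4a1 with the pseudogene added was 0.46 ± 0.37 in shCtr and 1.00 ± 0.71 in shOSGEP cells, against −0.06 ± 0.17 and 0.59 ± 0.99 for Eif4a1 alone (SD, n = 3 each).

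**Figure D4:**
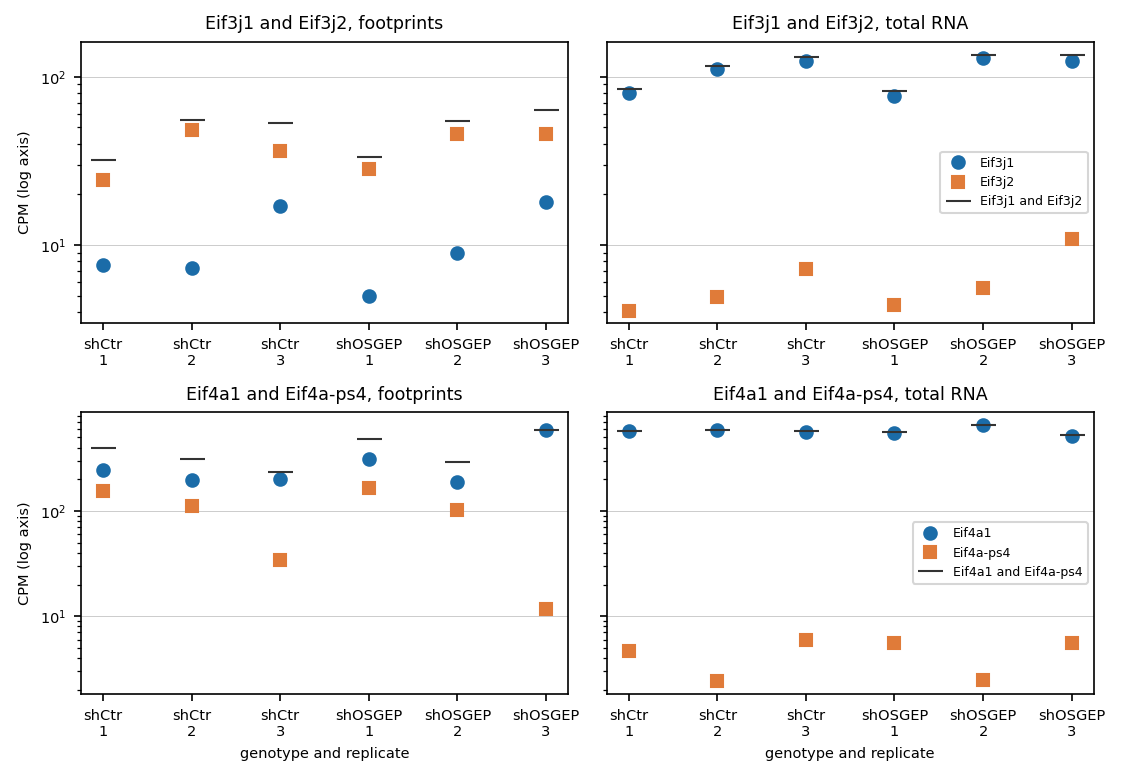
CPM on log axes of Eif3j1, Eif3j2 and their sum (top) and of Eif4a1, its pseudogene Eif4a-ps4 and their sum (bottom) in the 6 RPF libraries (left) and the 6 total RNA libraries (right). Eif3j2 exceeds Eif3j1 in footprints and lies far below it in RNA in every cell sample.

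The knockdown was then compared with the control. No member was called in RPF (0 of 48), in total RNA (0 of 48) or in translational efficiency, the ratio of footprints to RNA (0 of 47). Over all genes edgeR called 0 of 13529, 0 of 14516 and 0 of 12560, which is 0.0% in each. The targeted gene Osgep was therefore not called either, with a fitted RPF change of −0.84 (SE 0.39, edgeR adjusted p 0.9998). The lack of a call thus does not show that a member was unchanged. At an unadjusted p under 0.05 edgeR had 0 members in each comparison, while 1.03%, 1.78% and 0.135% of all genes were under it. DESeq2 called 0 members in the 3 comparisons and had 1, 0 and 0 at an unadjusted p under 0.05, while it called 1, 8 and 0 of all genes and had 1.77%, 3.14% and 0.207% under that p. Since libraries were made from whole cultures, fewer cells with a transcript and less of it per cell cannot be told apart.

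The median fitted log2 change of the members was −0.11 in RPF, −0.02 in total RNA and −0.08 in translational efficiency, and that of all genes was 0.05, 0.02 and −0.002. These medians rested on single libraries. Without shOSGEP replicate 3 they were 0.025 in RPF and 0.087 in translational efficiency, without shOSGEP replicate 1 they were −0.22 in RPF, 0.05 in total RNA and −0.27 in translational efficiency, and without shOSGEP replicate 2 they were −0.23 in RPF and −0.11 in total RNA. Of the 48 members in RPF, 13 were lower in shOSGEP in 3 of 3 replicate pairs (27.1%), and 15.2% of all genes were. Only Gspt2 was higher in 3 of 3, and 15.6% of all genes were. In total RNA 6 were lower in 3 of 3 and 11 higher, beside 16.2% and 17.7% of all genes. In translational efficiency 6 were lower and 1 higher, beside 11.2% and 11.6%. Members whose groups did not overlap numbered 2 in RPF (Gspt2 and Eif1b), 2 in total RNA (Eif4e3 and Eif4ebp2) and 0 in translational efficiency, and 5.07%, 7.08% and 4.34% of all genes did not overlap. By direction, Gspt2 was higher and Eif1b lower in RPF, where 2.43% and 2.64% of all genes were so, and Eif4e3 was higher and Eif4ebp2 lower in total RNA, where 4.0% and 3.09% were. In translational efficiency 2.03% of all genes were higher and 2.31% lower without overlap.

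The RNA of these genes varied little between genotypes by pair. A difference over 0.5 on the log2 scale was seen in 8, 0 and 2 of 48 members in pairs 1, 2 and 3, that is 16.7%, 0% and 4.17%, while 47.6%, 15.1% and 13.3% of all genes differed as much. For footprints the numbers were 17, 2 and 10 members, or 35.4%, 4.17% and 20.8%, beside 54.3%, 22.4% and 26.4% of all genes. The members are more abundant than most genes, and the part of abundance in these shares was not tested.

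Of the elongation factors, 7 of 8 had fitted footprint changes below 0, beside 30 of 48 members and 6108 of 13529 genes, and none passed the test. In pair 2 the footprints of Eef1b2 (0.10), Eef2 (0.12), Eef1g (0.10), Eef1d (0.01) and Eif5a2 (0.01) were higher. Those of Eef1a1, Eef1e1 and Eif5a were lower in that pair, so the direction was not shared between pairs. Eef1a1 measured 3015, 2810 and 1284 CPM in shCtr footprints and 2615, 2210 and 683 CPM in shOSGEP footprints. It was lower in each pair, by log2 differences of −0.21, −0.35 and −0.91, yet the groups overlapped because the replicates of each genotype were far apart. Its RNA measured 7975, 6638 and 6763 CPM against 6456, 6703 and 6328 CPM.

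Eef2 differed by −0.45, 0.12 and −0.51 in footprints and by −0.09, 0.02 and 0.02 in RNA in pairs 1 to 3. Eif5a differed by −0.07, −0.03 and −0.39 in footprints and by −0.26, 0.01 and −0.08 in RNA. Eef1b2 went with its RNA in pair 1, where footprints differed by −0.77 and RNA by −0.78.

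The 9 genes of the TOP list were looked at together. Their median footprint difference was −0.21, 0.10 and −0.50 in pairs 1, 2 and 3, against 0.00, −0.07 and −0.19 for the other 39 members tested. In pair 3 the 9 genes were lower in footprints without exception, from −0.21 for Eif4b to −0.91 for Eef1a1, while their RNA differed by a median of 0.01. In that pair 26 of the 39 other members, 58 of 75 ribosomal protein genes and 6735 of 13529 genes were also lower in footprints. In pair 2, 6 of the 9 were higher in footprints, so the direction was not shared between pairs. Ribosomal protein genes, the best known TOP transcripts, had median footprint differences of 0.18, −0.13 and −0.22 over 75 genes.

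For the translational efficiency of the TOP list the pair medians were 0.08, −0.07 and −0.51, and for ribosomal protein genes 0.31, −0.18 and −0.24. The low value of the list in pair 3 was thus lower than that of the ribosomal protein genes, and the difference was not tested. In the shOSGEP cell sample of pair 3, Eef1a1, Eif3f and Eif3e had ratios of footprints to RNA of −1.81, −1.79 and −1.52, and in the shCtr cell sample of that pair −1.02, −0.96 and −1.03, the lowest of the 3 shCtr samples for each gene. Both genotypes were therefore low for these genes in replicate 3.

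Among the cap-binding and helicase factors, Eif4a1 had the smallest unadjusted p in RPF and in translational efficiency. It measured 245, 196 and 200.3 CPM in shCtr footprints and 315, 188 and 583 CPM in shOSGEP footprints. The difference rested on the third replicate, with pair values of 0.36, −0.06 and 1.54, and RNA differed by −0.07, 0.15 and −0.12. The fitted changes of 0.76 in RPF (SE 0.46, edgeR adjusted p 0.9998) and 0.76 in translational efficiency (SE 0.48, edgeR adjusted p 1.000) did not pass, and they were 0.19 and 0.14 without replicate 3. In that library Eif4a-ps4 had its lowest value, 11.8 CPM, and the sum of gene and pseudogene was 595 CPM against 235 CPM in shCtr replicate 3.

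Eif4a2 had the smallest unadjusted p of the members in RNA. It measured 104, 110.4 and 137 CPM in shCtr RNA and 264, 117 and 173 CPM in shOSGEP RNA, higher in each pair by 1.35, 0.09 and 0.34. The groups overlapped, and the fitted change was 0.66 (SE 0.30, edgeR adjusted p 0.975), or 0.30 without shOSGEP replicate 1. Its footprints differed by 0.94, −0.56 and 1.01.

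The cap-binding proteins showed small differences. Eif4e was lower in footprints in each pair, by −0.37, −0.21 and −0.30, from 42.8, 46.3 and 38.9 CPM in shCtr to 33.03, 40.1 and 31.6 CPM in shOSGEP cells, with overlapping groups. Its RNA differed by −0.15, −0.002 and 0.06, and the fitted change in translational efficiency was −0.28 (SE 0.29, edgeR adjusted p 1.000). Eif4e3, a divergent relative, was higher in RNA without overlap, at 54.5, 60.9 and 64.4 CPM in shCtr and 74.6, 71.2 and 66.6 CPM in shOSGEP cells (fitted 0.24, SE 0.14, edgeR adjusted p 0.975).

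Eif4g1 differed by −0.52, 0.005 and 0.02 in footprints and by −0.43, 0.01 and 0.08 in RNA, so that the difference in its ratio was −0.09, −0.003 and −0.06. Eif4g2, which starts at the GTG shown above, differed by −0.43, −0.06 and −0.47 in footprints and by −0.02, −0.07 and −0.03 in RNA, and Eif4b by −0.50, 0.49 and −0.21 in footprints and −0.27, 0.38 and −0.03 in RNA. Gm23262, a snoRNA annotated inside Eif4g2 on the same strand, took 268 to 13826 footprint reads per library, and its part in the Eif4g2 values was not tested.

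The eIF4E inhibitors again differed from each other. Eif4ebp1 RNA measured 153, 125 and 97.3 CPM in shCtr and 219, 146 and 134 CPM in shOSGEP cells, higher in each pair by 0.51, 0.23 and 0.46, with a fitted change of 0.41 (SE 0.25, edgeR adjusted p 0.975). Its footprints differed by 0.38, −0.06 and −0.03. Eif4ebp2 RNA was lower without overlap, at 434, 443 and 403 CPM in shCtr and 168, 402 and 361 CPM in shOSGEP cells, with a fitted change of −0.46 (SE 0.31, edgeR adjusted p 0.975). Most of that came from pair 1, where RNA differed by −1.37 and footprints by −2.05. Without shOSGEP replicate 1 the fitted change was −0.17 in RNA and −0.04 in footprints.

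Scanning factors moved in no shared direction, with 4 of 7 fitted footprint changes above 0. Eif1 footprints measured 120.3, 171 and 108 CPM in shCtr and 248, 137 and 95.4 CPM in shOSGEP cells, higher in pair 1 by 1.04 and lower in pairs 2 and 3 by −0.32 and −0.17. Its RNA differed by 0.31, 0.02 and 0.002. The fitted footprint change of Eif1 was 0.27, and it was −0.21 without shOSGEP replicate 1. Eif5, its counterpart, differed by −0.05, −0.10 and 0.16 in footprints. Eif1b, a close paralogue of Eif1 with under 1% shared windows, was lower in footprints without overlap, at 9.80, 9.94 and 9.69 CPM in shCtr and 5.95, 8.42 and 8.40 CPM in shOSGEP cells (fitted −0.37, SE 0.26, edgeR adjusted p 0.9998). Eif5b differed by 0.63, −0.10 and 0.36 in footprints.

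For eIF3, the median fitted change of 14 genes was −0.06 in footprints and 0.00 in RNA. Eif3a differed by −0.11, 0.01 and 0.32 in footprints, and Eif3e, a subunit that also binds eIF4G, by 0.08, −0.27 and −0.51. Eif6 footprints differed by 0.58, 0.08 and −0.25. None of these passed the test.

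Gspt2, the eRF3 paralogue that arose as an X-linked retrogene, had the smallest unadjusted p of the members in RPF. It measured 2.59, 3.94 and 3.79 CPM in shCtr footprints and 6.36, 4.64 and 7.05 CPM in shOSGEP footprints, on 46 to 272 reads, and the groups did not overlap. The fitted change was 0.80 (SE 0.34, unadjusted p 0.0502, edgeR adjusted p 0.9998). RNA measured 6.63, 7.76 and 9.76 CPM in shCtr and 10.9, 9.46 and 9.95 CPM in shOSGEP cells, and translational efficiency changed by 0.47 (SE 0.38, edgeR adjusted p 1.000). Gspt1 differed the other way in footprints, by −0.11, −0.42 and −0.29, and Etf1 by −0.31, −0.11 and −0.53.

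**Figure D5:**
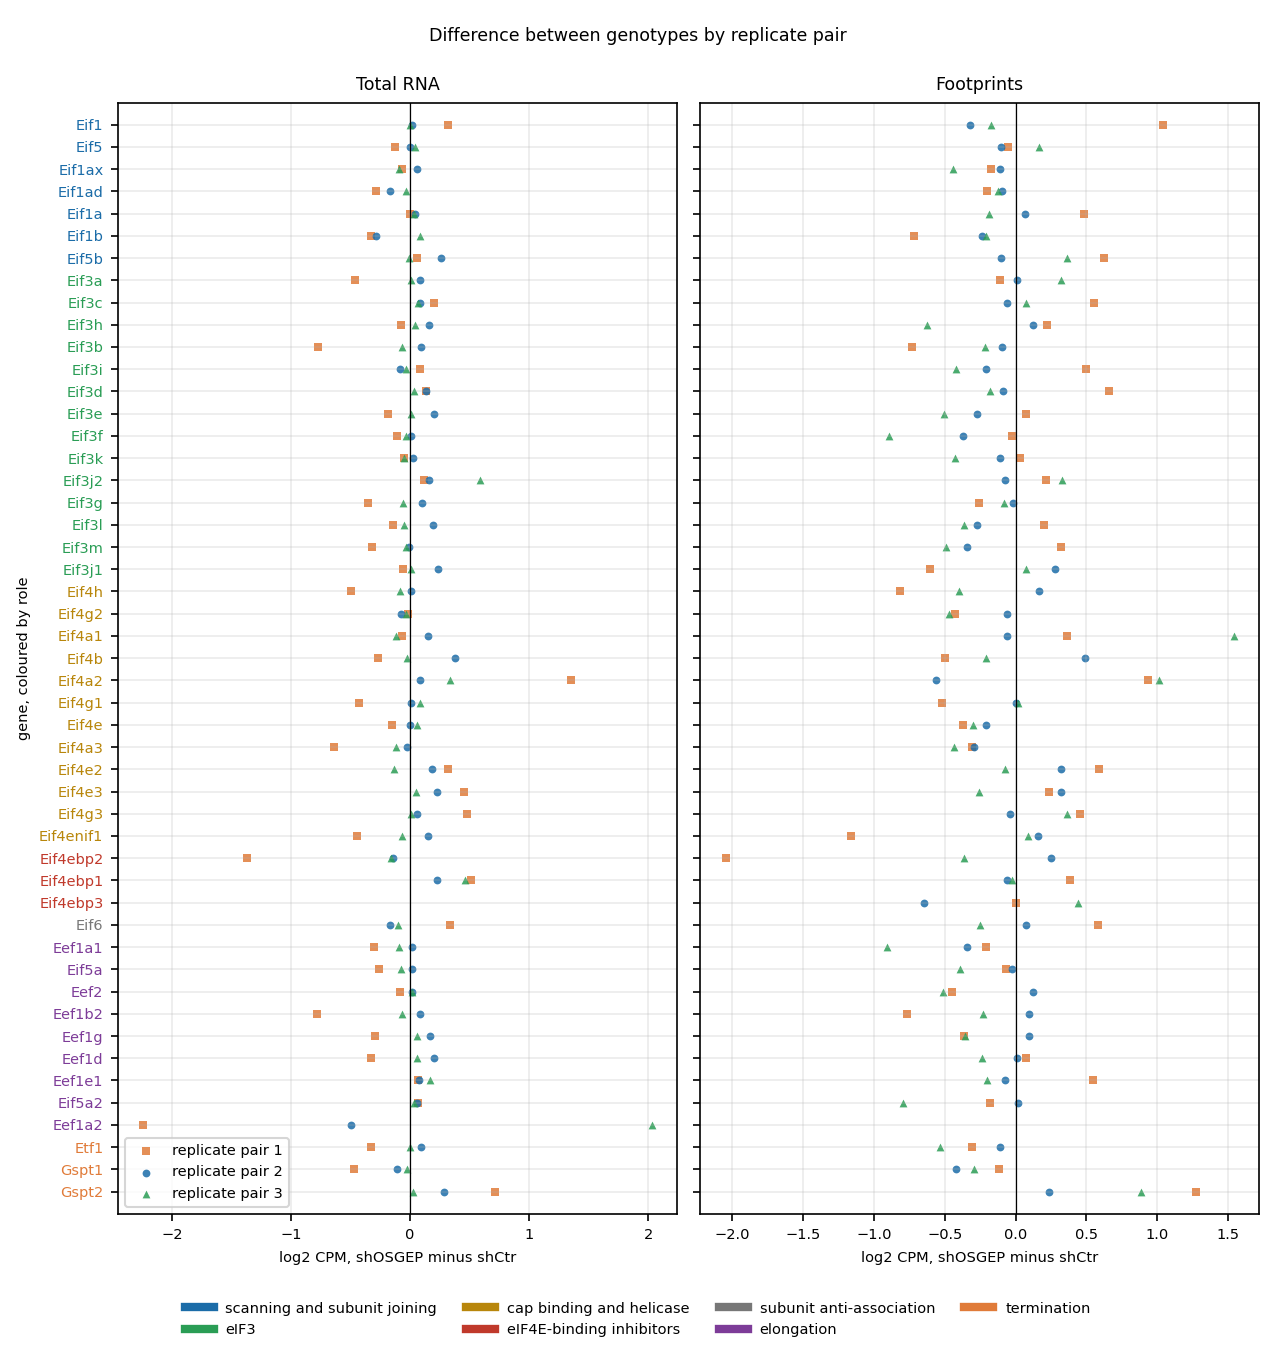
Log2 CPM of shOSGEP minus shCtr by replicate pair for the members tested in total RNA (left) or footprints (right), squares for pair 1, circles for pair 2 and triangles for pair 3. In pairs 2 and 3 the RNA values reach at most 0.59 apart from Eef1a2, footprint values spread more widely, and in footprints Gspt2 is the member above 0 in each pair.

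Other genes of the pathway were counted from 4 lists, and none of their genes passed the test between genotypes in RPF, total RNA or translational efficiency. Of 12 regulators of eIF4F, the mTOR and Mnk kinases among them, 7 had a fitted RPF change above 0, with Mknk2 having the smallest unadjusted p (−1.01, SE 0.69, edgeR adjusted p 0.9998). Of 12 poly(A)-binding and auxiliary initiation factors, 6 were above 0 in RPF. Of 16 enzymes that modify elongation factors, 15 were tested in RPF and 8 were above 0. Of 10 mitochondrial translation factors, 5 were above 0 in RPF, with medians near 0 in each list (0.04, −0.10, 0.01 and −0.04). In the comparison of footprints with RNA in shCtr cells, 1 of 12 auxiliary factors passed, Denr, which helps recycled subunits restart (1.18, SE 0.15, edgeR adjusted p 0.00254). In the same comparison 2 of 15 modifying enzymes passed with more footprints, and 1 of 10 mitochondrial factors, Mrrf, passed with fewer (−0.85, SE 0.21, edgeR adjusted p 0.0346). None of the 12 regulators of eIF4F passed. With 10.4% of all genes called in that comparison, 5.7% higher and 4.75% lower, these counts are near the background.

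The codons that need t6A start with A, and their share in each member was computed from the coding sequence. It could be given for 45 of the 47 members tested for translational efficiency, and ran from 22.6% in Eif4h to 34.4% in Eif4e2 with a median of 28.6%, beside a median of 26.96% over 11230 protein-coding genes. Across the 45 genes the Spearman correlation of this share with the fitted change in translational efficiency was 0.06, and across all protein-coding genes −0.04. By pair it was 0.17, −0.35 and 0.06 for the members and 0.11, −0.20 and −0.08 for all protein-coding genes, so the sign was not shared between pairs. Genes of the same libraries share depth and are no replicates of each other, and the correlations only describe these libraries.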

How the data were processed

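The deposited tables hold whole-number read counts per Ensembl gene, without normalisation, for 12 libraries (2 assays, 2 genotypes, 3 replicates). Per the labels and methods the authors trimmed and aligned the reads, and their processing notes name FastQC 0.11.9, Trim Galore 0.6.6, cutadapt and STAR. The methods describe STAR and Salmon on GRCm38 for an RNA sequencing experiment, and STAR on the coding transcriptome with perfect matches for footprints. The deposited tables list ribosomal and other noncoding genes, and no source ties either description to them. GRCm39 is also named. The counting tool, strand use and handling of multiple matches of these tables are not given in the sources used here. Symbols came from GENCODE M21, where 55227 of 55487 gene IDs were found and 260 were not. No column lacked a sample.

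The members and gene lists were chosen with earlier results of these data known. The text names 25 factors fixed by role, the 3 members with the smallest p of each comparison, the ends of each role group per length and every member called. A gene of the marker list is not reported here.

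Counts were tested by quasi-likelihood F-tests (edgeR 4.0.16 under R 4.3.3, filterByExpr, TMM, Benjamini-Hochberg over all genes kept, threshold 0.05). The code was checked beforehand on simulated counts with the dispersion of each gene capped at 0.05. That check does not show which changes the tests could find at the spread of these libraries. Translational efficiency is the assay by genotype interaction over 12 libraries. Footprints against RNA used protein-coding genes only. Log2 CPM took a prior count of 2. Members kept numbered 48, 48 and 47 in RPF, RNA and translational efficiency. Same-numbered libraries deviated together (correlations 0.59, 0.51 and 0.66 in RPF, 0.52, 0.54 and 0.29 in RNA), so a fit with the replicate number as a block was an alternative, beside RLE factors, DESeq2 1.42.0, other filters, a length offset and left-out libraries.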

Additional observations from a re-analysis of the deposited data

How the results depend on the processing

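No alternative called a member between genotypes in RPF, total RNA or translational efficiency, and the replicate block left those 3 counts at 0. The median change of the members moved by less than the spread between replicate pairs when a pair was left out, and leaving out pairs or single libraries (the latter added after seeing the data) gave −0.23 to 0.025 for RPF, −0.11 to 0.051 for total RNA and −0.27 to 0.087 for translational efficiency, so its sign was not stable. Footprints against RNA depended more on the settings. In shCtr cells the 8 calls (16.7% of members, 10.4% of all genes) became 19 with a length offset (39.6% and 42.8%), 16 with the replicate block (33.3% and 26.3%), and 1 to 3 when a replicate was left out (6.12% and 2.48% without replicate 1, 2.08% and 4.49% without replicate 2, 4.17% and 2.93% without replicate 3). The block kept those 8 genes and added Eef1e1, Eif1, Eif1a, Eif3f, Eif3l, Eif4e3, Eif4ebp1 and Eif5a, each with fewer footprints. In shOSGEP cells the 2 calls (4.26% and 1.68%) became 6 with DESeq2 (12.8% and 7.58%), 1 without a filter (2.0% and 1.9%), 9 with a length offset (19.1% and 14.6%), 6 with the replicate block (12.8% and 12.7%), 0 to 4 when a replicate was left out (8.33% and 5.13% without replicate 1, none of the members without replicate 2 or 3, where 4 and 0 of all genes passed), and 1 with Eif3j1 and Eif3j2 summed, an alternative chosen after seeing the data (2.17% and 1.64%). The block kept both genes and added Eif3a, Eif3j1, Eif4a2 and Eif4ebp1, and DESeq2 added Eif3a, Eif3j1, Eif4a2 and Eif4e3. That sum turned the value of Eif3j1 to 0.16 in shCtr and 0.15 in shOSGEP cells, by its own construction. Of the 8 calls in shCtr cells, that of Eif3j2 alone stayed past the threshold under every alternative that kept it as a gene of its own. The ratio of the highest to the lowest core eIF3 subunit in shCtr RNA fell from 5.32 to 2.26 with the longest coding transcript. For all others the cause was not tested. Depth limits Eef1a2, Eif4e1b and Eif4ebp3, which rested on few reads. Counts of the genes with shared coding windows depend on an unstated rule for multiple matches.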
